A study of Mus musculus with 2 samples.

Results

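Heat shock chaperones are a group of 10 genes, Hspa1a, Hspa1b, Hspa8, Hsph1, Dnajb1, Bag3, Hsp90aa1, Hspb1, Hspe1 and Hspd1, described here in the corneal epithelium of control and diabetic mice. They were taken by symbol from the 17492 genes of the count matrix, and all 10 were found. The group was proposed as cytosolic chaperones. Hspe1 and Hspd1 go against that name, since their products work in the mitochondrial matrix, and they are described apart. In GENCODE M21 on GRCm38, Hspa8 lies at chr9:40800984-40810087, Hsph1 at chr5:149614287-149636376, Dnajb1 at chr8:83608193-83612653 and Bag3 at chr7:128523616-128546981. Hsp90aa1 lies at chr12:110690605-110702728, Hspb1 at chr5:135887919-135889563, Hspe1 at chr1:55088132-55091307 and Hspd1 at chr1:55077835-55088243.

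Both groups were male C57BL/6J mice aged 20 weeks. Diabetes had been induced by 1 injection of streptozotocin at 160 mg/kg, a toxin that kills the insulin-producing beta cells of the pancreas. Control mice had received sodium citrate buffer at pH 4.5, and animals counted as diabetic had stayed over 250 mg/dL of blood glucose for the whole 12 weeks. Each group was 1 library, a pool of 4 corneas from 2 mice, so there is no replicate, no test between groups was run, and every interval covers counting error only. The epithelium was freed from the cornea with enzymes and trypsin and run on a droplet assay that gives captured RNA molecules a molecular barcode (UMI) at the 3′ side, so that PCR copies count once.

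Chaperones bind unfolded proteins and help them reach or keep their folded shape. HSP70 proteins work in cycles with J proteins, which bring substrates, and with exchange factors, which release them. HSP90 takes over partly folded clients such as kinases and hormone receptors, and small heat shock proteins hold unfolded proteins until HSP70 takes them. Many of these genes are induced by heat shock factor 1 (HSF1), which binds heat shock elements, inverted repeats of a GAA unit. The cornea lies at the surface of the eye, and its epithelium renews from limbal and basal cells that move outward and are shed as flat squamous cells.

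The control library held 9605 cells and 196359192 UMIs (median 16487 per cell), and the diabetic library 8203 cells and 171030636 UMIs (median 17677). The median mitochondrial share was 1.60% and 1.67%, and 18 cell barcodes occurred in both libraries. Cell types are the authors' 8 deposited labels, used as given. Between control and diabetic, LSC held 202 and 331 cells, Basal 2505 and 2382, TAC1 1261 and 1013, TAC2 657 and 706, Wing 2902 and 1974, Squam 1587 and 1347, and Conj 465 and 440. Immune, with 26 and 10 cells, entered no comparison of the members. The summed level of each marker list was highest in its own label for TAC1 (DNA replication genes), TAC2 (mitotic genes), Wing, Squam, Conj and Immune, in both libraries. The LSC list was highest in Conj and the Basal list in Wing. Over all cells, the marker lists of stroma, vessels and red cells summed to under 2 CPM in either library. Those of melanocytes summed to 3.39 and 3.47 CPM and of goblet cells to 7.29 and 8.18 CPM. The matrix held 1 of 6 stroma, 2 of 3 vessel, 2 of 4 red cell, 3 of 4 melanocyte and 2 of 3 goblet markers. These low sums therefore do not show that such cells were absent. The corneal endothelium list summed to 6.07 CPM in control against 18.3 CPM in diabetic cells, and the Schwann list to 89.3 and 96.1 CPM.

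Because the promoters of these genes are where HSF1 is known to act, the matching stretches are shown first. RefSeq promoter windows on GRCm38.p6, from 250 bases before to 50 after the gene start, were found for 8 members, and Hspa8 and Hsp90aa1 were not in the table. A pair of facing units was searched on both strands as GAANNTTC or TTCNNGAA, and a 3-unit element is such a pair continued by 1 more facing unit that shares bases with it. Capitals mark the matched pairs or elements. Hspa1a and Hspa1b have the same 60 bases at chr17:34972227-34972286 and chr17:34959309-34959368 (both minus strand), Hspb1 lies at chr5:135887786-135887845 (plus strand), and the Hspe1 stretch at chr1:55088053-55088082 (plus strand) lies before the RefSeq start of Hspe1 and before 1 of the RefSeq starts of Hspd1, which is read from the opposite strand.
Hspa1a and Hspa1b: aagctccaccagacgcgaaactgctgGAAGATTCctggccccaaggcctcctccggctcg
Hspb1: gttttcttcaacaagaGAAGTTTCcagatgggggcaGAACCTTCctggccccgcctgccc
Hspe1: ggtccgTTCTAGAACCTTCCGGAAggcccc

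Some genes have more than 1 window, and a gene was counted when any of its windows held a match. A 3-unit element was present for 3 of the 8 members, Hspe1, Hspd1 and Hsph1 (37.5%), against 0.541% of the 10537 measured genes with a window. A pair of units was present for 7 of the 8 (87.5%), against 13.9% of those genes, and Dnajb1 was the member without one. Of all 32851 windows counted 1 by 1, 0.603% held a 3-unit element and 15.1% a pair. Hspd1 has a second window with neither. Hspe1 and Hspd1 read the same run of adjacent units from opposite strands, so these are not independent matches. In the GENCODE annotation the run also falls inside the first exon of an Hspd1 transcript, in its UTR. The match in Hsph1 began 15 bases after 1 annotated start, and the pair in Bag3 42 bases after its start. The whole windows of Hspa1a and Hspa1b differ at 4 of 300 bases. A match is a description of the letters and does not show binding.

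Over all cells, none of the 10 members was called different between the libraries. A gene was called when its level, in CPM (UMIs of the gene relative to the total of the same cells), differed by 1.5-fold or more with at least 50 summed counts and 95% Poisson intervals that did not overlap. By this rule 0 members were higher, where 5.98% of 13846 measured genes were, and 0 were lower, where 2.8% were. The median log2 ratio of diabetic to control was 0.07 over the members and 0.07 over all measured genes. In bulk sums such as these, a different share of a cell type and a different RNA content per cell cannot be told apart, so the labels were also compared 1 by 1.

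Hspa8, the constitutive cytosolic HSP70, had the highest ratio over all cells. It was at 246 CPM in control against 325 CPM in diabetic cells, a ratio of 1.32 (95% interval 1.30 to 1.33). Hspa1a and Hspa1b, the stress-inducible HSP70 genes, went in opposite directions. Hspa1a was at 148 and 126 CPM (ratio 0.854, interval 0.839 to 0.869), and Hspa1b at 278 and 294 CPM (1.06, interval 1.04 to 1.07). The log2 ratio of Hspa1b, 0.08, lay near the median of 0.07 over all measured genes. Hsph1, an HSP110 protein that acts as an exchange factor for HSP70, was at 6.29 and 7.63 CPM (1.21, interval 1.12 to 1.31).

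The HSP70 partners Dnajb1, a J protein induced by heat, and Bag3, an exchange factor that links HSP70 to autophagy, differed little. Dnajb1 was at 71.0 and 74.3 CPM (ratio 1.05) and Bag3 at 27.0 and 29.1 CPM (1.08). Hsp90aa1, the inducible cytosolic HSP90, was at 239.8 and 205 CPM (0.853, interval 0.842 to 0.865). Hspb1, the small heat shock protein HSP27, was at 2597 and 2291 CPM (0.882, interval 0.879 to 0.886). Both lay lower in the diabetic library by less than the 1.5-fold of the rule.

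Hspe1 and Hspd1 encode HSP10 and HSP60, the lid and barrel of the mitochondrial chaperonin. Hspe1 was at 191.8 and 201 CPM (ratio 1.05) and Hspd1 at 81.1 and 82.6 CPM (1.02, interval 0.995 to 1.04). With the same mix of labels given to both libraries, these 2 genes turned direction, to 0.926 and 0.905. With that mix Hspa8 was at 1.14 and Hspb1 at 0.963, while Hspa1a stayed at 0.870 and Hsp90aa1 at 0.827.

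**Figure D1:**
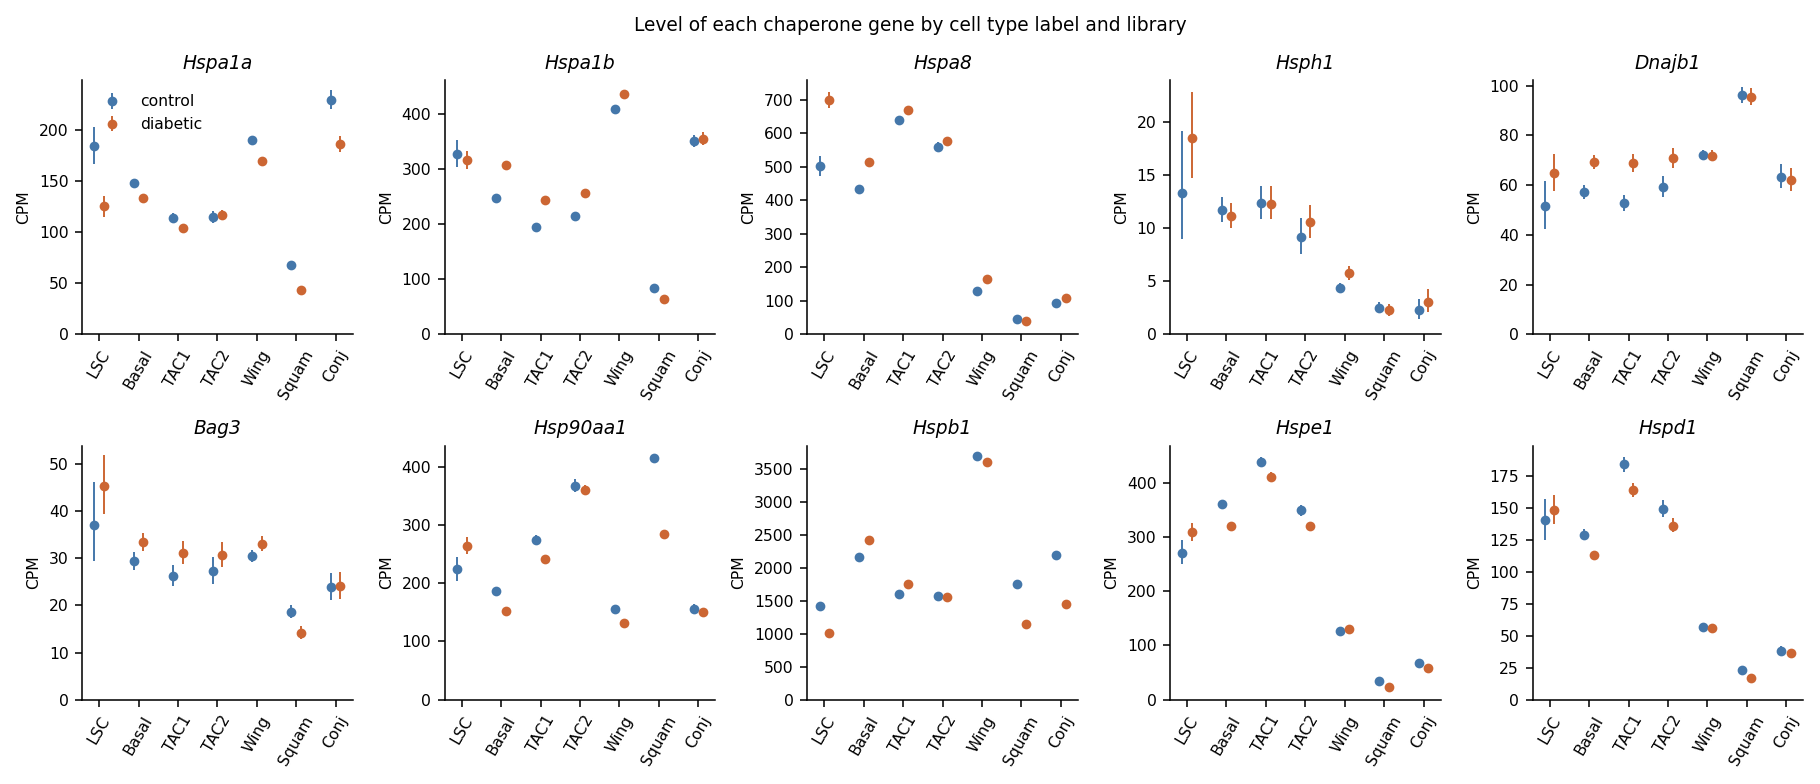
Level of the 10 chaperone genes in CPM (y axes, each from 0 and on its own scale) for the 7 epithelial cell type labels (x axes). Blue points are the control library, orange points the diabetic library, bars are exact 95% Poisson intervals, and each point is 1 library; Hspa8, Hspe1 and Hspd1 fall from TAC1 to Squam, whereas Dnajb1 is highest in Squam.

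Each member differed more between labels than between the libraries. Hspa8, Hspe1 and Hspd1 shared a profile, high in LSC, Basal, TAC1 and TAC2 and lowest in Squam. In the control library Hspa8 was at 639.8 CPM in TAC1 and 46.7 CPM in Squam, 13.7-fold apart. In the diabetic library its highest level was in LSC (699 CPM), next to TAC1 (668 CPM, intervals overlapping), and Squam was at 40.7 CPM, 17.2-fold below LSC. Hspe1 was at 438 and 410.0 CPM in TAC1 against 34.6 and 22.4 CPM in Squam in control and diabetic cells, 12.7-fold and 18.3-fold apart. Hspd1 was at 184 and 164 CPM in TAC1 against 23.3 and 16.6 CPM in Squam, 7.91-fold and 9.87-fold apart. Over the 14 sums of 7 labels and 2 libraries, Pearson's r of log2 levels was 0.99 between Hspe1 and Hspd1, 0.99 between Hspa8 and Hspd1, and 0.98 between Hspa8 and Hspe1. The sums share libraries and depth, so these are descriptions with no test.

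Hsph1 had a profile of the same kind at few counts. It was highest in LSC, at 13.3 CPM in control against 18.5 CPM in diabetic cells, and lowest in Conj in control (2.25 CPM) and in Squam in diabetic cells (2.26 CPM). Its r over the 14 sums was 0.95 with Hspa8 and 0.93 with Hspd1. Bag3 was also highest in LSC (37.2 and 45.4 CPM) and lowest in Squam (18.7 and 14.2 CPM), a narrower span of 1.99-fold and 3.21-fold. In the control library the intervals of neighbouring labels overlapped for Bag3 at every step of the order except the last.

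Hspa1a and Hspa1b were instead high in Wing and Conj, and Hspb1 in Wing. Hspa1a was highest in Conj, at 229.6 CPM in control against 186 CPM in diabetic cells, followed by Wing (190.2 and 169 CPM), and lowest in Squam (67.3 and 43.5 CPM). Hspa1b was highest in Wing (409 and 436 CPM) and lowest in Squam (83.7 and 63.6 CPM). The levels of Hspa1a and Hspa1b had an r of 0.93 over the 14 sums. Hspb1 was highest in Wing (3705 and 3606 CPM) and lowest in LSC (1416 and 1011 CPM). The second highest label of Hspb1 was Conj in the control library and Basal in the diabetic one.

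Hsp90aa1 and Dnajb1 were high in Squam. Hsp90aa1 was highest in Squam in the control library (416 CPM), followed by TAC2 (368 CPM). In the diabetic library this order turned, with TAC2 at 360.3 CPM and Squam at 285 CPM. Wing was lowest in both, at 156 and 132 CPM. Dnajb1 was highest in Squam in both libraries (96.2 and 95.6 CPM) and spanned only 1.87-fold and 1.54-fold over the labels. Over the 14 sums, Hsp90aa1 had an r of -0.69 with Hspa1a, and Dnajb1 an r of -0.72 with Hspd1.

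The genes whose profile over these 14 sums was most like that of 3 members were ranked among 6922 genes. For Hspa1a they were H2afj, Churc1, Rnf13, Dynlt3 and 2310033P09Rik, with r from 0.97 for H2afj to 0.95 for 2310033P09Rik. For Hsph1 they were Snhg12, 1110038B12Rik, Cav1, Ptk7 and Pabpc4, with r from 0.995 for Snhg12 to 0.99 for Pabpc4. For Hspb1 they were Paqr5, Urah, Tstd3, Fermt3 and 2510009E07Rik, with r from 0.92 for Paqr5 to 0.87 for 2510009E07Rik.

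**Figure D2:**
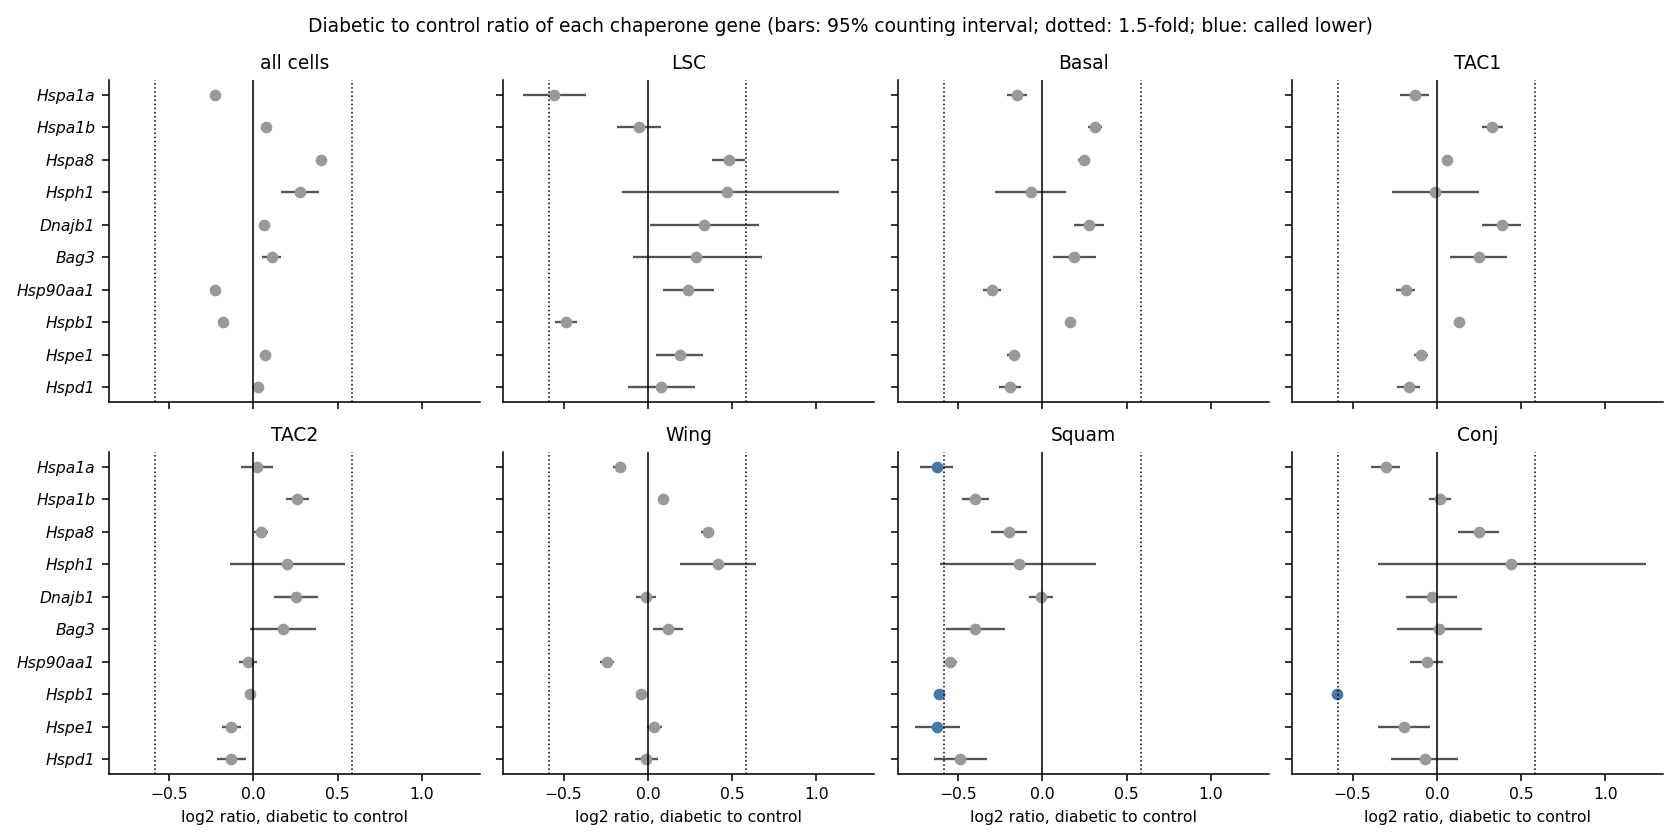
Log2 ratio of diabetic to control level for each of the 10 genes (x axes; genes on the y axes) over all cells and in 7 labels. Bars are exact 95% conditional binomial intervals, dotted lines mark 1.5-fold, and the blue points are the 4 ratios called lower, of which 3 are in Squam and 1 is in Conj.

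Between the libraries, the 4 calls within labels were all lower in diabetic cells, and 3 of the 4 were in Squam. There 0 of 10 members were called higher (1.79% of 10313 measured genes were) and 3 lower (7.75% were). Hspb1 was at 1757 CPM in control against 1148 CPM in diabetic Squam cells, a ratio of 0.653 (interval 0.645 to 0.662). Hspa1a was at 67.3 and 43.5 CPM (0.647, interval 0.605 to 0.691), and Hspe1 at 34.6 and 22.4 CPM (0.649, interval 0.591 to 0.712). Squam had the highest share of genes called lower of any epithelial label, so the members' count is read against that share.

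The other 7 members also had Squam ratios below 1, but none passed the rule. Hsp90aa1 was just outside it at 416 and 285 CPM (ratio 0.685, interval 0.667 to 0.703). Hspd1 was at 0.714, Bag3 at 0.759, Hspa1b at 0.759, Hspa8 at 0.872, Hsph1 at 0.907 and Dnajb1 at 0.994, and the intervals of Hsph1 and Dnajb1 held 1. The median log2 ratio in Squam was -0.44 over the 10 members and -0.08 over all measured genes, of which 61.1% had a ratio below 1. When the libraries were scaled by the median of these ratios (0.945) in place of the UMI totals, none of the 3 Squam calls remained, at 1.46-fold lower for Hspa1a, 1.45-fold for Hspb1 and 1.46-fold for Hspe1. None remained after thinning every cell to 5000 UMIs either, at 1.49-fold, 1.496-fold and 1.46-fold lower.

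Other values moved with the Squam ratios. The 5 Squam markers summed to 29800.3 CPM in control against 41493 CPM in diabetic Squam cells, of which Psca, a surface protein of the outer layer, was 28930 and 40529 CPM (a ratio of 1.40). The 6 Basal markers summed to 4341 and 3717 CPM in the same cells, the LSC list to 10776 and 8573 CPM, and immune markers to under 1 CPM. The corneal endothelium list, with 2 of its 3 genes seen, summed to 2.28 and 28.5 CPM there, the goblet list to 2.56 and 0.294 CPM, and the Schwann list to 172 and 202 CPM. Their part in the lower chaperone levels was not tested. Single cells with many Hspa1a UMIs occurred in control Squam. After thinning, the highest cell held 41 of 535 Hspa1a UMIs in control and 4 of 305 in diabetic Squam cells, and the variance was 7.25 and 1.48 times the mean. The top 10% of cells held 67.9% and 69.5% of these UMIs. Without the top 1% of cells by chaperone counts in each library and label, Hspa1a was 1.36-fold lower in diabetic Squam cells and was no longer called.

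In Conj, Hspb1 was called lower, 1 of 10 members (1.95% of 9319 genes were), and 0 were called higher (2.52% were). Its level was 2194 CPM in control against 1455 CPM in diabetic cells, a ratio of 0.663 (interval 0.650 to 0.677). Hspa1a was at 229.6 and 186 CPM there (0.810, interval 0.764 to 0.858) and Hspe1 at 67.8 and 59.2 CPM (0.873). After thinning Hspb1 was 1.45-fold lower in Conj, and with equal weight for every cell 1.44-fold, both under the rule. The summed level of the 6 Conj markers was 18179 and 24319 CPM, and its part in these ratios was not tested.

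No member was called in the other 5 labels. In LSC 0 of 10 were higher (2.63% of genes were) and 0 lower (2.61%), in Basal 0 higher (2.63%) and 0 lower (2.38%), and in Wing 0 higher (3.93%) and 0 lower (2.59%). In TAC1 0 were higher (1.7%) and 0 lower (1.52%), and in TAC2 0 higher (2.21%) and 0 lower (1.35%). Ratios in these labels ran from 0.680 for Hspa1a in LSC to 1.39 for Hspa8 in LSC. Hspa1a in LSC was just outside the rule, at 184 CPM (interval 166.5 to 203) in control and 125 CPM (interval 115 to 136) in diabetic cells.

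Within that range, directions differed by member and label. The interval of the Hspa8 ratio lay above 1 in 6 of 7 labels and below 1 in Squam. Hspa8 was at 502 and 699 CPM in LSC (1.39), 433 and 514 CPM in Basal (1.19) and 129.9 and 166 CPM in Wing (1.28). Its ratio was 1.19 in Conj but only 1.04 in TAC1 and 1.03 in TAC2 (interval 1.002 to 1.064). In TAC2 its log2 ratio of 0.05 lay near the median of 0.04 over all measured genes. Intervals that exclude 1 were not counted over all genes, so their numbers are not read as a trait of the members. Dnajb1 lay above 1 in LSC (51.4 and 64.7 CPM), Basal (57.2 and 69.4 CPM), TAC1 (52.6 and 68.7 CPM) and TAC2 (59.3 and 70.7 CPM). Its intervals held 1 in Wing, Squam and Conj. Bag3 lay above 1 in Basal (1.14), TAC1 (1.19) and Wing (1.09) and below 1 in Squam (0.759). Within LSC, marker lists differed too. The LSC list summed to 19647 CPM in control and 15582 CPM in diabetic LSC cells, the TAC1 list to 146 and 230 CPM. The TAC2 list summed to 38.6 and 111 CPM there. Their part in the LSC ratios was not tested.

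Hsp90aa1 had a ratio below 1 in 6 labels, and its interval excluded 1 in Basal (186 and 151 CPM), TAC1 (275 and 242 CPM), Wing (156 and 132 CPM) and Squam. It was higher in LSC, at 224 and 265 CPM (1.18, interval 1.06 to 1.31). The mitochondrial pair lay lower in Basal, TAC1 and TAC2 but not in LSC, where Hspe1 was at 271 and 309 CPM (1.14, interval 1.03 to 1.26) and the Hspd1 interval held 1. Hspe1 was at 360.4 and 320.2 CPM in Basal (0.889), 438 and 410.0 CPM in TAC1 (0.936) and 349 and 319 CPM in TAC2 (0.914). Hspd1 was at 129 and 113 CPM in Basal (0.875), 184 and 164 CPM in TAC1 (0.890) and 149 and 136 CPM in TAC2 (0.913). Hsph1 differed beyond its interval only in Wing, at 4.33 and 5.77 CPM (1.33, interval 1.14 to 1.56).

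The starts of Hspa1a and Hspa1b stand 12918 bases apart on chromosome 17. The 2 genes lie at chr17:34969190-34972156 and chr17:34956436-34959238 and encode nearly the same protein. Hspa1a was at 148 and 133 CPM in Basal, 114 and 104 CPM in TAC1, 115 and 116 CPM in TAC2 and 190.2 and 169 CPM in Wing, in control and diabetic cells. Hspa1b was at 247 and 306 CPM in Basal, 194 and 244 CPM in TAC1, 214 and 256 CPM in TAC2 and 409 and 436 CPM in Wing. In Basal, TAC1 and Wing the 2 ratios lay on opposite sides of 1 with intervals that excluded it. In TAC2 the interval of Hspa1a held 1.

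The share of Hspa1a in the summed UMIs of the pair was lower in diabetic cells in all 7 labels, with Clopper-Pearson 95% intervals apart. It was 36.0% in control and 28.4% in diabetic LSC, 37.4% and 30.3% in Basal, 36.9% and 29.8% in TAC1, and 35.0% and 31.3% in TAC2. In Wing it was 31.7% and 28.0%, in Squam 44.6% and 40.6%, and in Conj 39.6% and 34.4%. Over all cells it was 34.7% (interval 34.4 to 35.0) of 83769 UMIs and 30.1% (interval 29.7 to 30.4) of 71880 UMIs. The summed level of the pair was 427 and 420.3 CPM over all cells. Within labels the sum differed too, at 151 and 107 CPM in Squam, 328 and 372 CPM in TAC2, 395 and 439.5 CPM in Basal and 511 and 440.5 CPM in LSC.

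**Figure D3:**
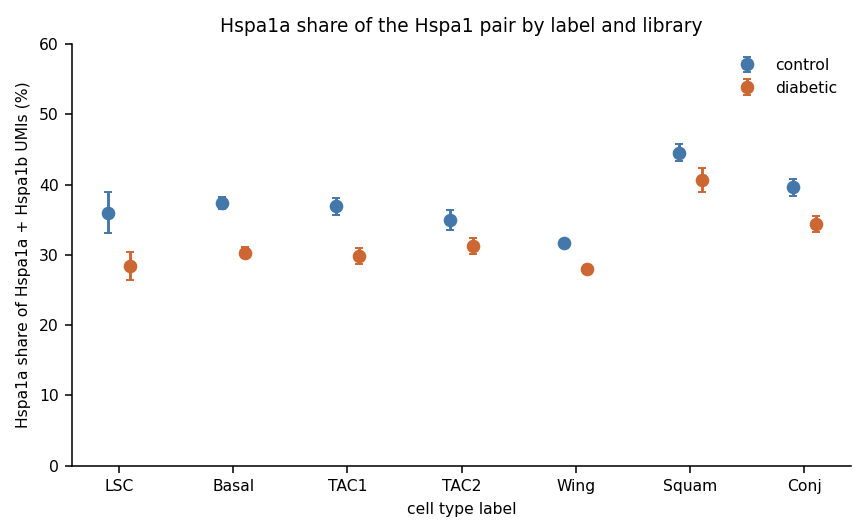
Share of Hspa1a in the summed Hspa1a and Hspa1b UMIs (y axis, percent, from 0) for 7 cell type labels (x axis), in the control (blue) and the diabetic library (orange), with 95% Clopper-Pearson intervals. Each diabetic point lies below the control point of its label, and Squam has the highest share in both libraries.

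How reads that match both genes were counted is not given in the sources used here, so the split carries that uncertainty. None of the 90-base windows in the last 600 bases of either transcript occurs in the other, whereas over the whole transcripts 49.3% of the Hspa1a windows and 52.3% of the Hspa1b windows do. Gm20481 overlaps Hspa1a on the opposite strand, and Hspe1 and Hspd1 overlap each other at their starts. Whether counting used strand is likewise not given. On the same strand, Snord14c, Snord14d and Snord14e overlap Hspa8, and 2610306O10Rik overlaps Bag3, which strand cannot separate. After thinning every cell to 5000 UMIs, the intervals of the share were apart in 3 labels, Basal, TAC1 and Wing. Without the top 1% of cells by chaperone counts they were apart in 6 labels, with Squam at 42.0% and 40.7%.

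The share of cells in which a member was seen was compared after thinning to 5000 UMIs, since depth differed between labels and libraries. Of 70 pairs of member and label, the diabetic share was higher in 5 and lower in 10, with intervals apart. The intervals of the other 55 overlapped. The same count was not made over all genes, so these numbers are not read as a trait of the members. The higher pairs were Hspa1b in Basal (66.8% of cells in control, 73.6% in diabetic) and TAC2 (59.2% and 67.4%), Hspa8 in Basal (86.0% and 89.5%), and Dnajb1 in Basal (24.0% and 28.0%) and TAC1 (21.8% and 28.8%). Without thinning, Dnajb1 was seen in 46.2% and 55.2% of Basal cells.

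Hspb1 was seen in nearly every cell of most labels, and in Squam and Conj its share was lower in diabetic cells with intervals apart. It was seen in 96.1% of control and 87.2% of diabetic Squam cells, and in 98.7% and 93.5% of Conj cells. In LSC it was seen in 97.6% and 91.9% of cells, with intervals that overlapped at 5000 UMIs and were apart at 2000 UMIs (85.8% and 73.0%). Without thinning the Squam shares were 99.1% and 96.4%. Hsp90aa1 was lower in Squam (67.4% and 58.7%), Wing (53.9% and 47.5%), TAC1 (73.8% and 67.0%) and Basal (58.5% and 54.4%). Hspa1a was lower in TAC1 (41.9% and 35.0%) and Wing (58.9% and 54.1%), and Hspe1 in Basal (82.6% and 76.6%) and Squam (11.8% and 7.87%).

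**Figure D4:**
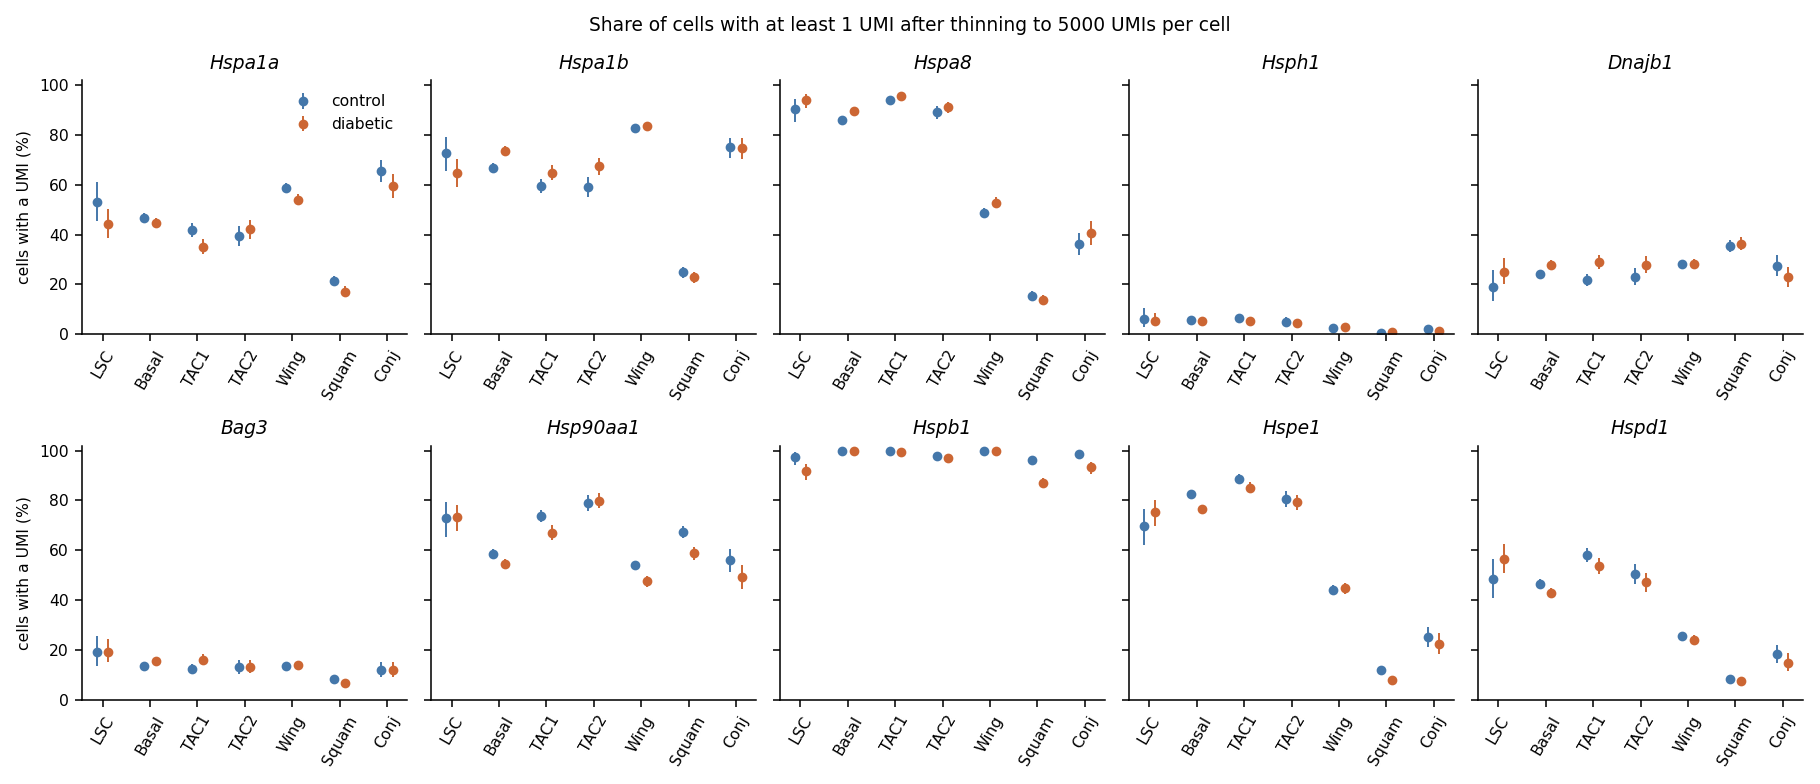
Share of cells with at least 1 UMI of each gene after thinning to 5000 UMIs per cell (y axes, percent) in 7 labels (x axes), for the control (blue) and the diabetic library (orange), with 95% Clopper-Pearson intervals. Hspb1 lies above 95% everywhere except diabetic LSC, Squam and Conj, and Hspa8 and Hspe1 fall from over 80% in TAC1 to under 20% in Squam.

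Free RNA can add UMIs to cells that do not express a gene, and no label is known to lack these chaperones, so no background share could be read for them. Krt12, the keratin of corneal epithelium, was at 7411 CPM in the 26 control and 764 CPM in the 10 diabetic Immune cells. Hspb1 held 86 UMIs in those control cells and 2 in the diabetic ones, and no direction is drawn from them.

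Correlations between members across the cells of a label and library were weak in most sets. Pearson's r of log thinned counts was computed for each pair of members in 13 sets of at least 200 cells. The highest median r over the sets was 0.11, for Hspa8 with Hspe1, with a range of 0.01 to 0.27. It was 0.04 for Hspa1a with Hspa1b, whose levels went together over labels, but 0.30 and 0.28 in control and diabetic Squam cells. The highest r in any set was 0.38, for Hspa1b with Hspb1 in diabetic Conj cells. The highest median with the immediate early genes Fos, Jun and Egr1 was 0.08, for Dnajb1 with Jun. In control Wing cells, mean UMIs per cell after thinning ran from 0.02 for Hsph1 to 18.4 for Hspb1. Why the correlations were weak was not tested, and no finding is drawn from them.

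Other genes of the chaperone network are given over all cells, where 5.98% of measured genes were called higher and 2.8% lower. None of 5 measured HSF genes and regulators was called, with Hsf1 itself at 9.40 and 9.82 CPM and Hsbp1, which binds HSF1, at 170.2 and 149 CPM. None of 22 J proteins, 11 exchange factors and co-chaperones of HSP70, or 14 subunits of the CCT chaperonin and prefoldin was called. The median log2 ratios of these lists were 0.06, 0.01, 0.03 and 0.01, against 0.07 over all genes. The largest among J proteins at 20 CPM or more were Dnajb4 (20.3 and 27.5 CPM) and Dnaja4 (20.2 and 27.0 CPM).

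Of the 9 other measured HSP110 and HSP70 genes, 1 was called higher, Hspa4l, an HSP110 relative, at 5.52 and 8.88 CPM (ratio 1.61), and the list's median was -0.02. Hspa5, the HSP70 of the endoplasmic reticulum, was at 163.8 and 142 CPM, and Hspa9, that of mitochondria, at 43.2 and 48.1 CPM. Of 15 genes of the HSP90 family and its co-chaperones, 1 was called higher, Fkbp5, which binds steroid receptors with HSP90 and is induced by glucocorticoids, at 20.3 and 68.6 CPM (3.38). The median of that list was 0.03. Hsp90ab1, the constitutive HSP90, was at 1123 and 1407 CPM (1.253) over all cells, opposite in direction to Hsp90aa1 in the same sums. Values with an equal mix of labels were taken for the members only, so this contrast is not carried to single labels.

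The small heat shock proteins had 3 of 6 genes called higher (5.98% of all genes were) and none lower (2.8%), with a median log2 ratio of 0.64, against 0.07 over all genes. These were Hspb8, a partner of Bag3 (1.28 and 5.57 CPM, 4.35-fold), Hspb2 (1.10 and 2.53 CPM, 2.30-fold) and Cryaa (0.494 and 0.830 CPM, 1.68-fold), all at low levels. Of 15 other genes induced by heat or unfolded protein, 1 was called higher, Atf3 (0.963 and 2.77 CPM), and 1 lower, Hmox1 (1.54 and 0.877 CPM), with a median of -0.01.

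Immediate early genes, which respond to many stimuli and to tissue dissociation, were set beside the members as a further list. Over all cells 6 of 18 were called higher and none lower, with a median log2 ratio of 0.30. Fos was at 155 and 244 CPM, Fosb at 17.1 and 41.2 CPM and Btg2 at 36.4 and 59.3 CPM, and the others were Atf3, Nr4a1 and Socs3. These counts stand beside 5.98% and 2.8% of all genes. In Basal 9 of 18 were called higher (2.63% of all genes were), in TAC1 13 of 18 (1.7%) and in TAC2 10 of 18 (2.21%). In LSC 2 of 13 were called higher (2.63%) and 1 lower (2.61%). In Wing 2 of 16 were called higher (3.93%) and 0 lower (2.59%), and in Conj 1 of 16 higher (2.52%) and 2 lower (1.95%). In Squam none of 16 was called higher (1.79%) and 3 were called lower (7.75%). Their part in the chaperone ratios was not tested.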

How the data were processed

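The authors deposited raw UMI counts for each gene in each cell. A deposited cell table gives the group and the authors' cell type label of each cell. The submitters' processing notes name Cell Ranger 5.0.0, Seurat 4 and build mm10 without roles. The sources used here give no filters on cells or genes. Libraries were made with a 3′ v3.1 droplet kit, per the labels' protocols.

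Counts were summed per library and label and expressed as CPM of that sum. CPM have exact 95% Poisson intervals, ratios exact conditional binomial intervals and shares Clopper-Pearson intervals, all for counting error only. A call needs a ratio of 1.5 or more either way, 50 summed counts over both libraries, which also defines a measured gene, and intervals apart. For equal label mix, label CPM were averaged with the mean cell shares of both libraries. Thinning drew 5000 UMIs per cell, leaving out 486 control and 264 diabetic cells. Profiles over labels used log2 of CPM plus 10, for genes at 20 CPM or more in at least 1 sum.

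Scrublet scored doublets. The threshold it sets by itself marked 0 control and 2 diabetic cells and had not worked, so an alternative left out the top 8% of scores (769 and 706 cells). The other alternatives were median-of-ratios scaling, count minimums of 10 and 200, folds of 1.25 and 2, removal of cells over 10% mitochondrial counts or of the top 1% by member counts, equal weight per cell, other thinning depths and a minimum of 2 UMIs. Those on the split of the Hspa1 pair were chosen after seeing the data. The calling rule was tried on simulated Poisson counts with planted changes. These hold counting error only, so the trial does not bear on differences between mice, libraries or cells.

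Named genes were all 10 members, every list gene past the rule over all cells, up to 3 per direction of each list with the largest ratio after adding 10 CPM among genes at 20 CPM or more, and the 5 genes most like Hspa1a, Hsph1 and Hspb1. Hsf1, a regulator of the members, was named outside this rule. The members and lists were chosen with earlier results of these data known. Positions are from GENCODE M21 on GRCm38, and promoter windows from RefSeq. Scripts ran in Python 3.11.15 with scanpy 1.11.5, pandas 2.3.3, scipy 1.17.1, matplotlib 3.10.9 and numpy 2.4.6.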

Additional observations from a re-analysis of the deposited data

Results flagged for a closer look

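Hspb1 went in opposite directions between labels, with intervals on either side of 1. Its ratio of diabetic to control was 1.12 in Basal and 1.09 in TAC1, against 0.653 in Squam and 0.663 in Conj. The Hspb1 ratio also lay below 1 in LSC (0.714, interval 0.682 to 0.747) and Wing (0.973), and in TAC2 its interval held 1. Hspe1 likewise had a ratio of 1.14 in LSC and 0.649 in Squam. Each label has 1 library per group, and the differences between labels were not tested.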

How the results depend on the processing

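No paired analysis was possible because each group is 1 library. Over all cells 1 member, Hspa8, was called higher at the smaller alternative fold. Within labels, 5 ratios were called higher at that fold, against 0 at 1.5. The share of all genes called was taken at the fold of 1.5 only. Counts at the other folds are therefore not read as results about the members. Lower calls, 4 as reported, numbered 10 at the smaller fold, 0 at a fold of 2 and 1 under median-of-ratios scaling (Hspb1 in Conj). They numbered 1 after thinning to 5000 UMIs, which was Hsp90aa1 in Squam and none of the 4. With equal weight for every cell they numbered 2, Hspa1a and Hsp90aa1 in Squam. Equal cell weight took Hspe1 in Squam to 1.18-fold lower and Hspb1 to 1.49-fold in Squam and 1.44-fold in Conj. Hsp90aa1 in Squam was called lower without likely doublets (1.52-fold), after thinning (1.504-fold) and with equal cell weight (1.59-fold), and Hspa1a in LSC without likely doublets (1.55-fold). Pairs with a higher diabetic share of cells numbered 1 at 2000 UMIs and 13 without thinning, against 5. Labels whose intervals of the Hspa1a share of the pair were apart numbered 3 after thinning, against 7, with the diabetic share still lower in all 7. Members with a promoter match numbered 7 for 2 units, against 3 for 3 units. The causes were not tested, apart from the folds and units, which set their counts. Of 80 ratios, thinning turned the direction of 11, equal cell weight 8, scaling 7 and doublet removal 5, the largest by size being 0.47 on the log2 scale, under thinning. Depth limits Hsph1 most, with 25 and 34 counts in Conj.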

Other observations

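The small heat shock proteins that are no members differed by layer. Cryab, the alpha-B crystallin, was at 39.3 CPM in control against 71.7 CPM in diabetic Basal cells, 40.6 and 73.3 CPM in TAC1, and 890 and 1466 CPM in Squam, and was called higher in each, while in LSC it was at 159.7 and 146 CPM. In Squam, Cryab thus lay 1.65-fold higher where Hspb1 of the same family lay lower. Of the 5 measured genes of this list in Squam, 3 were called higher (1.79% of all genes were) and 1 lower (7.75%). Hspb8 was concentrated in LSC (39.9 and 77.3 CPM) and Conj (9.36 and 32.5 CPM), was called higher in both and in TAC2 (2.17 and 11.2 CPM), and was below 1 CPM in Basal, TAC1, Wing and Squam.

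Hspa4l was called higher in LSC (16.1 and 42.4 CPM), TAC1 (6.01 and 9.70 CPM), TAC2 (13.1 and 21.0 CPM) and Conj (2.16 and 4.75 CPM). Fkbp5 was called higher in all 7 epithelial labels, from 2.57-fold in LSC to 8.77-fold in Basal (5.47 and 48.0 CPM). In Squam the co-chaperones Fkbp4 (18.3 and 12.0 CPM) and Ppid (3.41 and 2.22 CPM), which bind HSP90, were called lower. They were 2 of 14 measured genes of their list, beside 7.75% of all genes in Squam. The shares of all genes called in each label, given above with the members, stand beside the other calls too. The genes and labels of these paragraphs were chosen after their values were seen.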
